A study of Mus musculus with 2 samples.

Results

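The translation initiation factor genes described here are the annotated mouse genes whose names begin with Eif followed by a digit from 1 to 6, pseudogenes excluded, that had long reads in both libraries of adult gastrocnemius. There were 51 such genes among 11558 annotated genes read in both libraries. The annotation holds 56 genes of that name form, of which 52 were listed in at least 1 library. Eif5a2 had 1 read, in replicate 2 only, and Eif2ak2, Eif4e1b, Eif4ebp3 and the lincRNA gene Eif2c5 had no listed read. The tissue was gastrocnemius, the large muscle of the calf, of male B6CASTF1/J mice aged 2 months, which are first-generation hybrids of a C57BL/6J and a CAST/EiJ parent. Each of the 2 libraries was made from 2 µg of total RNA with added spike-in RNAs, and both belong to 1 group, so no condition was compared. The labels number the males differently but give both the same donor identifier, so they may not be separate animals, and the spread between the libraries may be technical.

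Initiation is the step at which a ribosome is loaded on an mRNA and placed on its start codon. The cap-binding complex eIF4F, made of the cap-binding protein eIF4E, the scaffold eIF4G and the RNA helicase eIF4A, recruits a small ribosomal subunit that carries eIF3, eIF1, eIF1A, eIF5 and the initiator tRNA bound to eIF2. In skeletal muscle this step is a main target of feeding, insulin and contraction, which act through mTORC1 on the eIF4E-binding proteins and through kinases on eIF2.

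The reads of 6 of these genes divided between forms that differ by a short in-frame coding stretch. The stretches are shown because they are what separates the forms counted further on. Each is in capitals between 15 bases of the neighbouring exons in lower case, in the sense of the transcript, from the GENCODE M21 transcripts of build mm10.
Eif4h, 60-nt exon at chr5:134624441-134624500, minus strand: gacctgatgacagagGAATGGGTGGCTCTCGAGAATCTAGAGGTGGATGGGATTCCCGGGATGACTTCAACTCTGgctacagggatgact
Eif4g2, 114-nt exon at chr7:111076280-111076393, minus strand: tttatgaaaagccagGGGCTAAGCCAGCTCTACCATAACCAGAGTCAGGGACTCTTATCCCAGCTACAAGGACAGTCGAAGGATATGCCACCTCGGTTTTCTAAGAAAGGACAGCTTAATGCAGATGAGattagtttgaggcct
Eif4enif1, 72-nt exon at chr11:3233988-3234059, plus strand: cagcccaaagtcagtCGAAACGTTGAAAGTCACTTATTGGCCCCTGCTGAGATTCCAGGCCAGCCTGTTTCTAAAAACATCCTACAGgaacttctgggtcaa
Eif4g3, 57-nt extension of an exon at chr4:138180490-138180546, plus strand: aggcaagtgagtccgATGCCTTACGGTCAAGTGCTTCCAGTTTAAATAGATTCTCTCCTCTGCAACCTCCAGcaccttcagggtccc
Eif4a2, 3-nt extension at chr16:23108585-23108587, plus strand: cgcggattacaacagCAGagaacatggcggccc
Eif4g1, 3-nt extension at chr16:20681734-20681736, plus strand: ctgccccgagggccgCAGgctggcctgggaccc

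Replicate 1 held 1182747 reads, of which 1107128 were assigned to annotated genes, and replicate 2 held 1480977 and 1402875. Levels are given as reads per 1000000 reads of annotated genes (CPM), with both libraries, and as mean ± SD (n = 2). A long read counts a transcript once whatever its length, so CPM was not divided by length, and reads per kb of the most read annotated transcript are given where genes are compared. Fast-fibre muscle genes supplied 252730 and 225126 CPM in replicates 1 and 2, and slow-fibre genes 2886 and 8837 CPM. Markers of other cell types were also summed. Fibroblast genes summed to 613 and 686 CPM, erythroid genes to 170 and 108 CPM, tendon genes to 126 and 163 CPM, endothelial genes to 19.9 and 37.1 CPM, Schwann cell genes to 17.2 and 23.5 CPM, and macrophage genes to 0.903 and 2.14 CPM. Adipocyte markers had no listed read, and satellite cell markers had 0 and 1.43 CPM. In such bulk tissue fewer cells of a type and less RNA per cell cannot be told apart. ERCC spike-ins took 4.20% and 2.11% of all reads, and were kept out of the totals. The reads carry no molecular identifiers, so the intervals given cover counting error only.

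The 51 genes held 6515 reads, or 0.588% of the reads of annotated genes (Wilson 95% interval 0.574 to 0.603), in replicate 1. They held 8632 reads, or 0.615% (0.603 to 0.628), in replicate 2. Their levels summed to 6019 ± 190 CPM. A few members carried much of this: Eif1 alone took 18.8% and 16.5% of the member reads, and the 5 most read members took 44.3% and 43.7%. At the other end, Eif3j2 and the eIF2 kinase gene Eif2ak3 each had 4 reads and 1 read, and the kinase gene Eif2ak4 had 5 and 2 reads. The median member stood at 65.0 CPM in replicate 1 and 69.9 CPM in replicate 2.

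**Figure D1:**
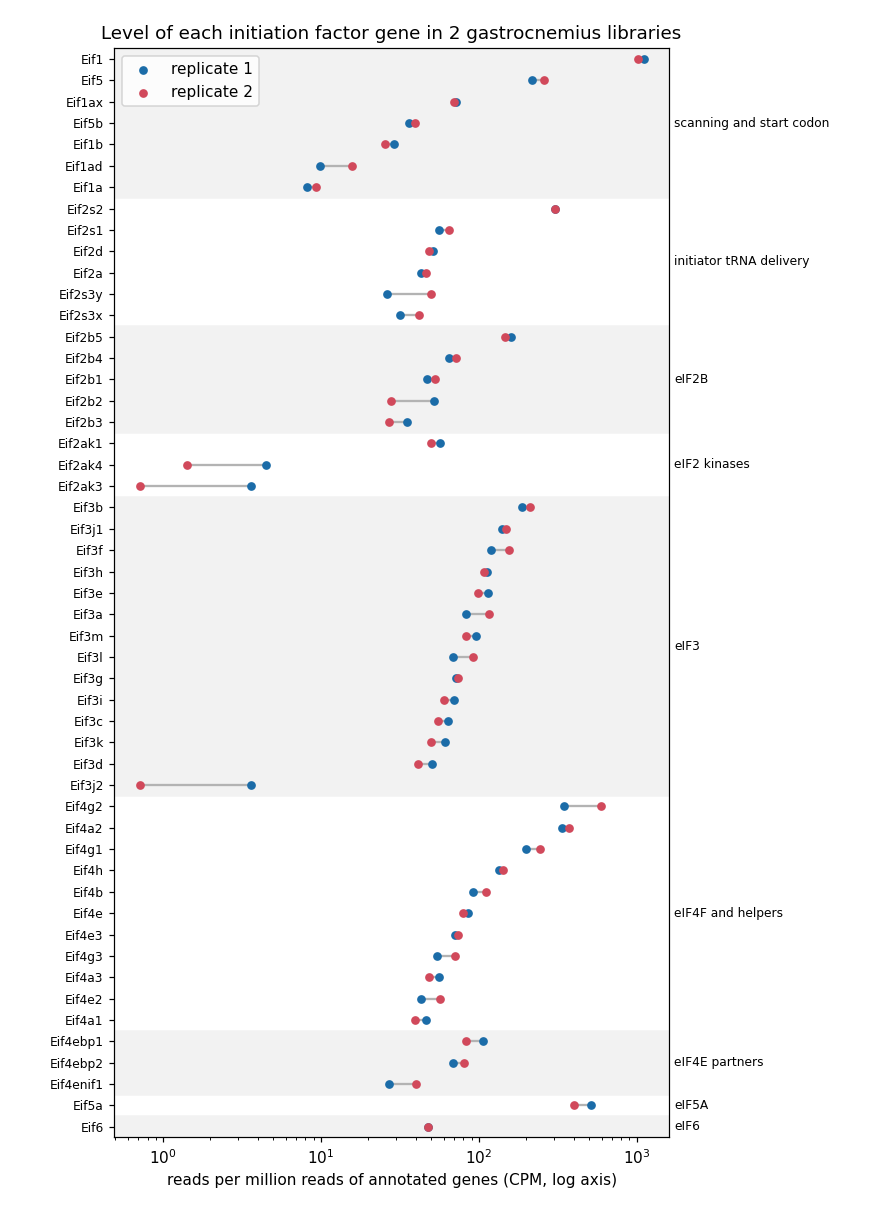
Level of each of the 51 genes as reads per 1000000 reads of annotated genes on a log axis, with 1 point per library joined by a grey line, grouped by role. Eif1 lies farthest to the right in both libraries, and the 3 genes farthest to the left, Eif2ak4, Eif2ak3 and Eif3j2, have at most 5 reads in a library.

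Genes for scanning and start codon choice were led by Eif1, which encodes the small factor that keeps the scanning ribosome from starting at the wrong codon. Eif1 had 1224 reads in replicate 1 and 1427 in replicate 2, or 1106 and 1017 CPM (mean 1061 ± 62.5), and ranked 61st and 82nd among all annotated genes. Eif5, which encodes the factor that triggers GTP hydrolysis by eIF2 at the start codon, had 242 and 364 reads (219 and 259.5 CPM). Per kb of transcript the order was the same, with 2005 summed reads per kb for Eif1 and 149.6 for Eif5. Eif1b, an Eif1 paralog, had 32 and 36 reads, or 2.55% and 2.46% of the reads of the pair. Its read ratio to Eif1 was therefore low in both libraries alike, with a log2 value of -5.26 ± 0.04, and -4.91 per kb. Of the eIF1A genes, X-linked Eif1ax had 80 and 98 reads and autosomal Eif1a 9 and 13 reads. The log2 ratio of Eif1ax over Eif1a was 2.98 ± 0.15 in reads and 2.12 per kb. Eif1ad, which encodes a protein with an eIF1A domain, had 11 and 22 reads. Eif5b, for the GTPase of ribosomal subunit joining, had 40 and 55 reads, which is 36.1 and 39.2 CPM.

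Genes for delivery of the initiator tRNA encode the 3 subunits of eIF2 and a few alternative carriers. Eif2s2, for the beta subunit, had 334 and 426 reads (302 and 304 CPM), nearly the same level in both libraries. Eif2s1, for the alpha subunit that the stress kinases phosphorylate, had 62 and 91 reads (56.0 and 64.9 CPM). Per kb the beta subunit gene stayed higher, with 299 summed reads against 44.9 for the alpha subunit gene. The gamma subunit, which binds the tRNA, has an X-linked gene, Eif2s3x, with 35 and 59 reads, and a Y-linked gene, Eif2s3y, with 29 and 70 reads. In these males the Y-linked copy gave 45.3% of the pair's reads in replicate 1 and 54.3% in replicate 2. The ratio of the pair changed sign between the libraries (log2 -0.27 and 0.24) and so did not exceed their spread, whereas per kb it was 0.98 and did. Eif2a and Eif2d, for factors that can carry tRNA to the ribosome without eIF2, had 48 and 65, and 57 and 68 reads.

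The 5 genes of eIF2B, the exchange factor that reloads eIF2 with GTP, summed to 342 ± 23.2 CPM. Eif2b5, for the catalytic epsilon subunit, led them with 176 and 206 reads (159 and 147 CPM) and also led them per kb, with 149.6 summed reads against 84.9 for Eif2b4. The other 4 subunit genes ran from 31.2 CPM for Eif2b3 to 68.2 CPM for Eif2b4. Of the eIF2 kinase genes, Eif2ak1, for the haem-regulated kinase, held 63 and 70 reads. Eif2ak4, for the kinase that senses uncharged tRNA, had 5 and 2 reads, and Eif2ak3, for the kinase of endoplasmic reticulum stress, had 4 reads and 1. The log2 ratio to Eif2ak1 was -4.17 ± 0.91 for Eif2ak4 and -4.69 ± 1.23 for Eif2ak3, and per kb -4.44 and -4.75. Both ratios exceeded the spread, although they rest on few reads. Eif2ak2, for the kinase of double-stranded RNA, had no listed read.

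The genes of eIF3, the large scaffold on the small ribosomal subunit, numbered 14 and summed to 1269 ± 37.0 CPM. Eif3b, for a core subunit, had 207 and 296 reads (187 and 211 CPM). Eif3j1, for the loosely bound subunit eIF3j, had 155 and 210 reads (140 and 149.7 CPM), whereas its paralog Eif3j2 had 4 reads and 1. The remaining 11 subunit genes ran from 46.0 CPM for Eif3d to 137 CPM for Eif3f. On the CPM scale the genes therefore lay between Eif3d and Eif3b, except for Eif3j2. Per kb the leading eIF3 gene was Eif3h with 214 summed reads, followed by Eif3k with 178 and Eif3e with 177.

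The eIF4F genes and the helicase helpers, counted with their relatives Eif4a3, Eif4e2 and Eif4g2, summed to 1467 CPM in replicate 1 and 1836 CPM in replicate 2. Among the helicase genes, Eif4a2 had 375 and 523 reads (339 and 373 CPM) and Eif4a1 had 51 and 55 reads (46.1 and 39.2 CPM). Both encode eIF4A proteins that unwind the 5′ leader. Eif4a2 was thus the main eIF4A gene in both libraries, 8.29-fold above Eif4a1 in reads (log2 3.05 ± 0.26) and 6.66-fold per kb. Eif4a3, whose protein belongs to the exon junction complex of spliced mRNAs rather than to eIF4F, had 62 and 68 reads. Its log2 ratio to Eif4a1 was 0.29 ± 0.02. A processed pseudogene outside the name rule, Eif4a-ps4, matched the Eif4a1 transcript at 99.9% identity over all of its 1218 bases and was given 38 and 54 reads. Those reads equal 42.7% and 49.5% of the reads of Eif4a1 and the copy together, so the level of Eif4a1 is uncertain. With them added to Eif4a1, the log2 ratio of Eif4a3 over Eif4a1 turned from 0.29 to -0.60, and that of Eif4a2 over Eif4a1 went from 3.05 to 2.16. Copies of other members were rarely read: over the 6 copies of 4 members there were 42 and 66 reads, of which Eif1, Eif2s2 and Eif5 had the few that were not Eif4a-ps4.

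Among the scaffold genes, Eif4g1, for the classical eIF4G, had 220 and 345 reads (199 and 246 CPM). Eif4g2, for DAP5, a relative that lacks the eIF4E-binding part and serves cap-independent starts, had 384 and 835 reads (347 and 595 CPM). Eif4g3, for eIF4GII, had 60 and 99 reads. The log2 ratio of Eif4g2 over Eif4g1 was 1.04 ± 0.33, but per kb it was 0.36 and no longer exceeded the spread. The per-kb value divides by annotated lengths, 7995 nt for Eif4g2 and 5004 nt for Eif4g1. The next most read Eif4g2 chain, without the first exon, spanned 5075 nt, and the most read Eif4g1 chain 5477 nt. The per-kb ratio thus depends on the lengths taken. Eif4g3 over Eif4g1 stood at -1.83 ± 0.05, and at -1.93 per kb. That per-kb value takes 5363 nt for Eif4g3, although annotated transcripts held 0 and 3 of its reads. The most read Eif4g3 chains spanned 4028 and 4085 nt. With annotated transcript models alone, which hold few reads of Eif4g1 and Eif4g3, the ratios to Eif4g1 were 4.96 for Eif4g2 and -3.33 for Eif4g3. Of the cap-binding genes, Eif4e had 95 and 111 reads, Eif4e3 had 78 and 103, and Eif4e2, for the 4EHP protein that binds caps without binding eIF4G, had 48 and 80. Eif4e2 lay under Eif4e in reads (log2 -0.72 ± 0.36) and per kb (-2.01). The log2 ratio of Eif4e3 over Eif4e, -0.20 ± 0.12 in reads, did not exceed the spread, but per kb it was -1.02 and did. Of the helpers that stimulate the helicase, Eif4h had 149 and 201 reads and Eif4b 102 and 156, with a log2 ratio of 0.45 ± 0.13, and 1.16 per kb.

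The genes of proteins that bind eIF4E summed to 203 ± 0.586 CPM. Eif4ebp1, for the repressor that mTORC1 phosphorylates, had 118 and 116 reads and Eif4ebp2 had 76 and 113. Their ratio, log2 -0.33 ± 0.42, did not exceed the spread, but per kb of annotated transcript it was -1.87 and did. Nearly all Eif4ebp2 reads spanned no intron, however: single-exon models that the authors' processing classed as genomic, lying at chr10:61428491-61428910 in replicate 1 and chr10:61428491-61429292 in replicate 2, held 70 of its 76 reads (92.1%) and 99 of 113 (87.6%). Those models lie inside the annotated last exon and reach its 3′ end, so they do not show whether the RNA was spliced. The spliced Eif4ebp2-201 had 6 and 14 reads, and with genomic reads left out the log2 ratio of Eif4ebp2 over Eif4ebp1 was -3.59. Eif4enif1, for the transporter that takes eIF4E into the nucleus, had 30 and 56 reads. Eif5a, for the hypusine-bearing factor now known mainly for elongation, had 566 and 563 reads (511 and 401 CPM), whereas Eif5a2 had 1 read in all. Eif6, for the factor that keeps the large ribosomal subunit from joining early, had 53 and 67 reads (47.9 and 47.8 CPM).

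Of the 17 pairs of related genes compared, 3 had a member with no listed read in at least 1 library and are given by reads alone. Of the other 14, 11 ratios pointed the same way in each library with a mean over 2 SD from 0. Without genomic reads, Eif4e2 over Eif4e (log2 -0.75) and Eif4h over Eif4b (0.47) no longer met that rule. With 2 libraries this is a description of their spread and not a test.

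**Figure D2:**
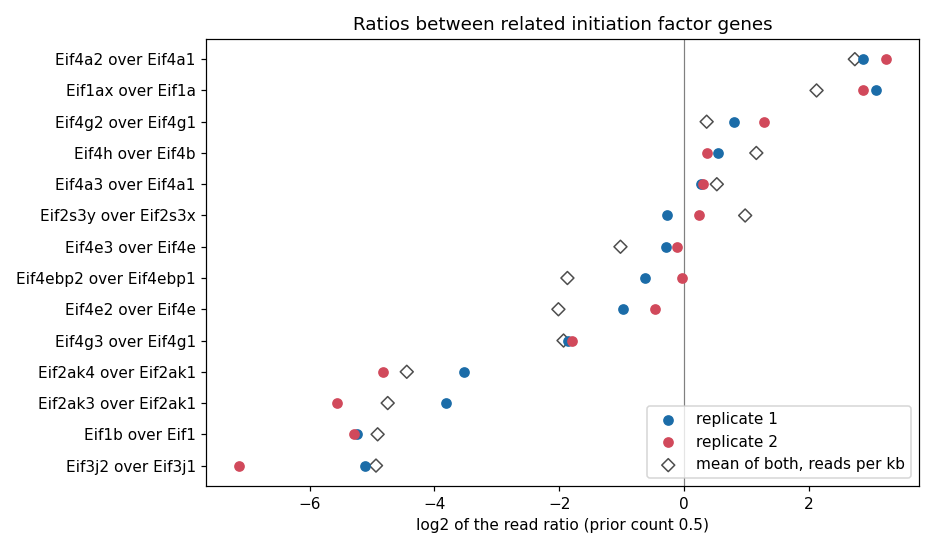
Log2 ratio of reads for the 14 pairs of related genes read in both libraries, with 1 filled point per library and an open diamond for the mean ratio in reads per kb. Farthest to the right lies Eif4a2 over Eif4a1 in replicate 2, and Eif1ax over Eif1a in replicate 1. The points of Eif2s3y over Eif2s3x lie on opposite sides of 0.

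The difference between the libraries was small for most members. Of the 51 genes, 46 had at least 50 summed reads, and 0 of these were over 2-fold apart, against 194 of 4295 annotated genes, or 4.52%. All genes over 2-fold apart divided into 3.98% higher in replicate 2 and 0.536% higher in replicate 1. With replicate 2 set over replicate 1, the members had a median log2 ratio of 0.05, against 0.11 for all genes, and 25 were higher and 21 lower in replicate 2 (54.3% higher, against 61.4% of all genes). That split moved with the scaling: median-ratio factors shifted every log2 ratio by -0.10 and gave 19 higher and 27 lower (51.0% of all genes higher), and TMM factors, a trimmed-mean scaling, shifted each by -0.09 and gave 22 and 24 (52.7% of all genes higher). The members' median minus that of all genes was -0.06 on each scaling. The counting interval of the ratio lay above 0 for 7 members, which is 15.2% of them against 18.5% of all genes, and below 0 for 3, which is 6.52% against 6.98%. Neither share stood far from its background. With either other scaling, 3 members kept an interval above 0 (Eif4g2, Eif2s3y and Eif3a). The 3 members below 0 were joined by Eif4ebp1, which made 4. The share of all genes with such intervals was not computed under those scalings, so these counts have no background.

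The 10 members with such intervals, named because their values stood out, belonged to several roles. Eif4g2 was 1.72-fold higher in replicate 2 (log2 0.78, interval 0.60 to 0.96), and Eif2s3y had a log2 ratio of 0.93 (0.29 to 1.61). Eif3a, for the largest eIF3 subunit, had 92 and 163 reads and a log2 ratio of 0.48, Eif3l had 76 and 129 reads and 0.42, and Eif3f had 132 and 217 reads and 0.38. Eif4g1 (log2 0.31) and Eif5 (0.25) completed those higher in replicate 2. Lower there were Eif2b2, with 58 and 39 reads (log2 -0.91, interval -1.54 to -0.30), Eif5a (-0.35, interval -0.52 to -0.18) and Eif1 (-0.12, interval -0.23 to -0.01). Summed over a role, the eIF4F genes, their relatives and the helpers had a log2 ratio of 0.32 (interval 0.23 to 0.41). It was 0.22 (0.13 to 0.31) with median-ratio scaling. Without Eif4g2 that ratio was 0.15 (interval 0.04 to 0.25), and 0.05 (-0.06 to 0.15) with median-ratio scaling. Slow-fibre genes were also higher in replicate 2, with 7 of 8 over 2-fold apart and a log2 ratio of their sum of 1.61. Of the 8 fast-fibre genes, 7 were lower there and 0 were over 2-fold apart. The median log2 ratio of the fast-fibre genes was -0.49, and the ratio of their sum was -0.17. The part of either set in the difference was not tested.

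The direction of the difference moved with transcript length. Of 19 members with a transcript under 2000 nt, 3 were higher in replicate 2 and the median log2 ratio was -0.21, where all genes of that length had -0.01. Of 17 members between 2000 and 4000 nt, 14 were higher, with medians of 0.14 for members and 0.13 for all genes. Of 10 members of 4000 nt or more, 8 were higher, with medians of 0.24 and 0.31. All genes thus showed the same order of medians from short to long. The share of all genes higher in replicate 2 was not computed by length, so only the medians can be set against all genes. What set the length pattern was not tested.

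**Figure D3:**
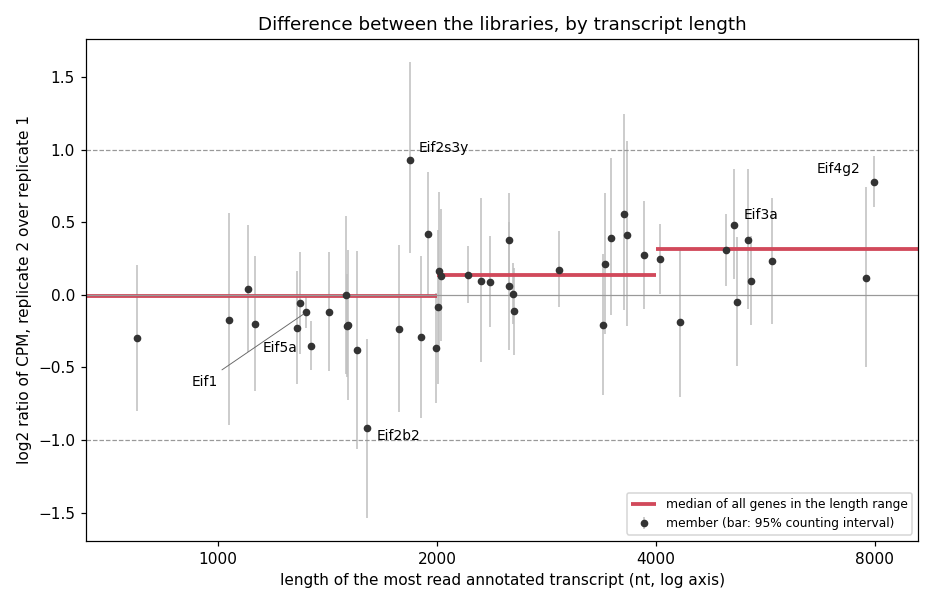
Log2 ratio of CPM, replicate 2 over replicate 1, for the 46 members with at least 50 summed reads, against the length of the most read annotated transcript on a log axis, with 95% counting intervals; red lines are the medians of all genes in each length range, and dashed lines mark 2-fold. The red medians step from -0.01 to 0.13 and 0.31, and no member lies outside the dashed lines.

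Most reads of the members were assigned to an annotated transcript by the authors' processing. Whether they reached both of its annotated ends was not tested. Such reads made up 83.6% in replicate 1 and 83.1% in replicate 2 of the member reads, against 66.2% and 65.5% for all annotated genes. Reads with an unannotated splice site were 1.81% and 1.73%, against 17.2% and 17.4%. These pooled shares weight each gene by its reads, and the unannotated-site share was not computed gene by gene for all genes. Incomplete splice matches, a class meant for part of an annotated chain of introns, were 10.3% and 9.998% for members and 10.3% and 9.95% for all genes. The authors' class of a chain could differ between the libraries. A 4-exon Eif4e chain with 13 and 18 reads was an incomplete splice match in replicate 1. In replicate 2 it was classed with an unannotated splice site. For annotated transcripts the gap was smaller gene by gene. Their median share was 88.5% over the 46 members with at least 50 summed reads and 83.0% over all such genes. Under 50% of reads matched an annotated transcript in 4 of the 46 (8.70%, against 17.8% of all genes). The 4 were Eif4g3 with 1.89%, Eif4g1 with 5.31%, Eif4ebp2 with 10.6% and Eif4enif1 with 24.4% of the reads of both libraries. Longer members had a lower share, with medians of 91.8%, 88.5% and 77.0% for transcripts under 2000 nt, of 2000 to 4000 nt and of 4000 nt or more. The share of reads that lacked the 5′ part of the chain had medians of 3.33%, 5.14% and 11.01%. Neither share was computed by length for all genes, so these medians have no background. The range of 4000 nt or more held 10 members, among them Eif4g3, Eif4g1 and Eif4ebp2.

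**Figure D4:**
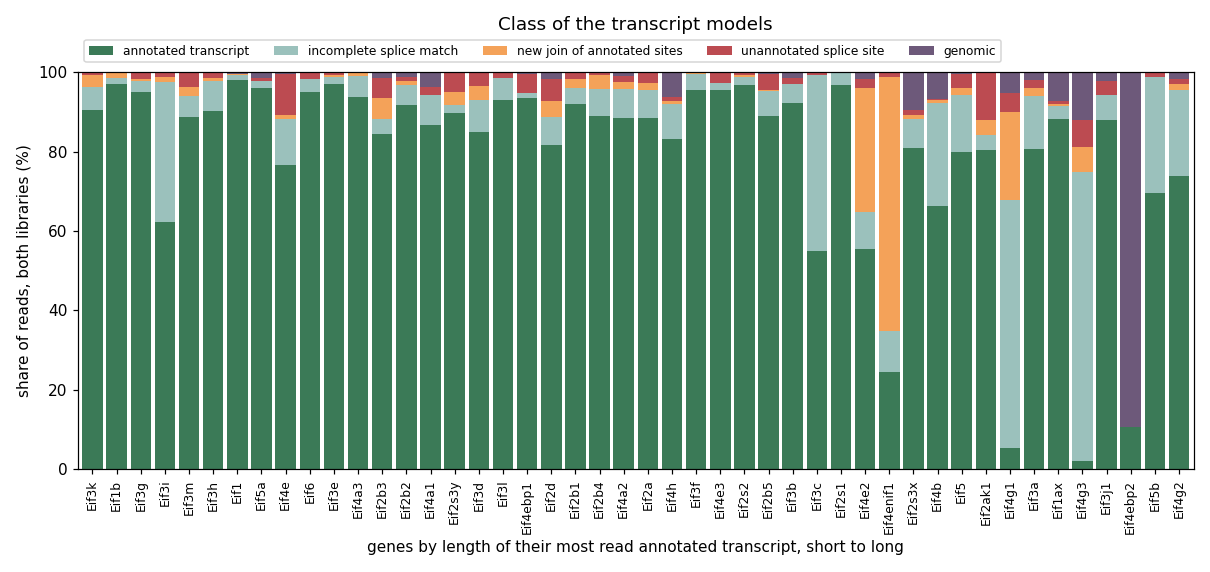
Share of the reads of both libraries in each class of transcript model, for the 46 members with at least 50 summed reads ordered by transcript length. Annotated transcripts fill most bars, and the exceptions are the incomplete splice matches of Eif4g1 and Eif4g3, the unannotated joins of Eif4enif1 and the genomic reads of Eif4ebp2.

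A single isoform carried most members. Of 45 members with at least 20 reads in each library, genomic reads left out, 42 had the same dominant isoform in both libraries (93.3%, against 94.0% of 4113 genes). The dominant isoform held over 80% of the reads in 30 of them, with a median of 88.9%, against 81.7% for all genes, and was annotated in 41. The shares of all genes with a dominant isoform over 80%, or with an annotated one, were not computed. In Eif3c, for a core eIF3 subunit, the annotated Eif3c-201 held only 57.7% and 52.6%. A chain that lacks its first exon had 9 reads (12.7%) and 13 (16.7%). Its first splice site is shared with annotated first exons of other transcripts, so a start there and an incomplete Eif3c-201 cannot be told apart.

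The 4 members whose dominant isoform was not annotated, or differed between the libraries, were all genes of eIF4E or eIF4G proteins or their partners. Eif4enif1 was led by a 19-exon chain whose splice sites are all annotated but whose combination of them is not, with 15 of 30 reads and 22 of 56, ahead of the annotated Eif4enif1-203 with 7 and 13 reads. Its 2 main first exons took 26.7% and 33.9%, and 63.3% and 55.4%, of the spliced reads. Eif4e2 was led by Eif4e2-207 with 14 reads (30.4%) in replicate 1 and by an unannotated 8-exon join with 21 reads (26.2%) in replicate 2. Its annotated first exons shared the reads nearly evenly, at 52.2% and 41.1% for one and 43.5% and 54.8% for the other. Its distal last exon took 71.7% and 68.5% of the reads and the proximal one 23.9% and 30.1%.

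The scaffold genes were spread over many models. Eif4g1 had 96 of them, the most read being a 33-exon unannotated join with 20 and 45 reads, while pooled single-exon models held 24 of its 219 reads in replicate 1. In Eif4g3 the reads were mainly chains that lacked the 5′ exons: a 24-exon chain of 4085 nt had 14 and 14 reads and one of 4028 nt had 9 and 21. Of its spliced reads, 45.3% in each library began in the same exon, which is not an annotated first exon of the gene. Whether it is a transcript start was not tested.

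In 30 members, 100 annotated exons that at least 1 annotated transcript skips were scored by the reads that span them. Of these, 86 were included in over 90% of reads, 10 in under 10%, and 4 in between. Many of the 100 lay in Eif4g1 or Eif3a, and a few were versions of 1 exon that share 1 end. The same split over all genes was not computed, so these counts have no background. The 60-nt exon of Eif4h shown above, which adds 20 residues, was included in 21 of 131 reads (16.0%, Wilson interval 10.7 to 23.3) and 21 of 175 (12.0%, 7.98 to 17.6). The short form of this helicase helper was thus the main one in both libraries. The 114-nt exon of Eif4g2, which adds 38 residues to DAP5, was included in 311 of 359 reads (86.6%, 82.7 to 89.8) and 708 of 805 (88.0%, 85.5 to 90.02). The libraries agree within counting error on both exons.

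The 72-nt exon of Eif4enif1, of 24 residues, was included in 25 of 29 reads (86.2%, 69.4 to 94.5) and 39 of 54 (72.2%, 59.1 to 82.4), intervals that overlap. The 79-nt exon of Eif4e2 at chr1:87232403-87232481, which holds the stop codon of the annotated transcripts that include it, was included in 22 of 33 reads (66.7%) and 35 of 50 (70.0%). Among exons under 10%, the 21-nt exon of Eif4g1, of 7 residues, was in 0 of 61 and 0 of 151 spanning reads. The untranslated 94-nt exon of Eif5a was in 53 of 544 (9.74%) and 50 of 548 (9.12%).

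Choices between alternative splice sites differed more between the libraries in some genes than in others. In Eif4a2 the upstream acceptor, which adds the 3 bases CAG and 1 residue, was used in 95 of 356 reads (26.7%) and 124 of 475 (26.1%). The same kind of choice in Eif4g1 was used in 40 of 136 reads (29.4%, 22.4 to 37.6) and 101 of 266 (38.0%, 32.3 to 43.9). Another Eif4g1 choice, the only one of those scored whose Wilson intervals did not overlap, lay at the acceptor that follows position 20678581 of chromosome 16. There an unannotated intron was used in 13 of 83 reads (15.7%, 9.39 to 24.98) and 8 of 173 (4.62%, 2.36 to 8.86), and the annotated one in 66 (79.5%) and 164 (94.8%). In Eif4g3 the acceptor that adds 57 bases was used in 25 of 44 reads (56.8%) and 37 of 78 (47.4%), so neither form led in both libraries. An intron of Eif4e that is not annotated, at chr3:138550719-138550892, was used in 14 of 90 reads (15.6%) and 18 of 108 (16.7%) that use its acceptor, and 13 and 18 reads began in the exon before it.

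**Figure D5:**
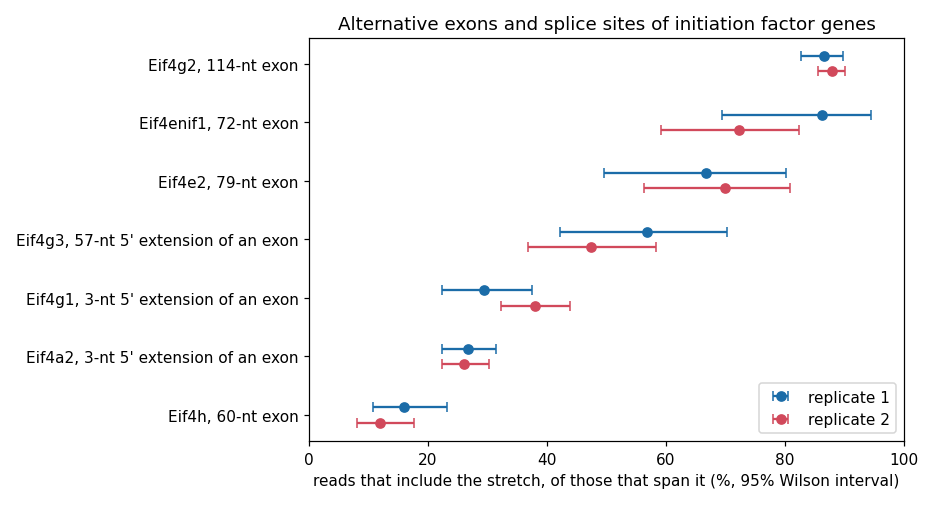
Share of spanning reads that include each alternative exon or exon extension, with 1 point per library and 95% Wilson intervals. The Eif4h exon lies at the low end and the Eif4g2 exon at the high end, and the intervals of the libraries overlap for each of the 7 stretches.

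Other genes that act on initiation were read from a list of 43, all with reads in at least 1 library. Of the 26 with at least 50 summed reads, 1 was over 2-fold apart, 15 were higher and 11 lower in replicate 2, and the median log2 ratio was 0.07. Over all genes 4.52% were over 2-fold apart and 61.4% higher, so these counts lay near the background. The most read was Mknk2, for a kinase that phosphorylates eIF4E, with 652 and 1047 reads (668 ± 111 CPM), followed by Paip2, for a repressor of poly(A)-binding protein, with 218 and 364 reads, and Akt2, for a kinase of insulin signalling, with 217 and 224. The other eIF4E kinase gene, Mknk1, had 22 and 29 reads. The gene over 2-fold apart was Tsc2, for an inhibitor of mTORC1, with 64 and 193 reads (log2 1.25, interval 0.84 to 1.68), and its partner Tsc1 had 70 and 161 (0.86, interval 0.45 to 1.29). Among the genes of mTORC1 itself, Mtor had 13 and 32 reads, Rptor 8 and 23, and Mlst8 24 and 33. Those of its inhibitory subunits had 99 and 90 for Akt1s1 (log2 -0.48, interval -0.91 to -0.05) and 22 and 15 for Deptor. For eIF5A, the hypusine enzyme genes Dohh and Dhps had 48 and 54, and 22 and 25 reads. For eIF2, the phosphatase adaptor gene Ppp1r15a had 34 and 57 reads and Atf4, the factor whose translation rises when eIF2 is phosphorylated, 55 and 71.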

How the data were processed

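Gastrocnemius RNA was read as long reads in 2 libraries. The values are raw read counts for each transcript model, as whole numbers that the authors deposited separately for each library. Per the file headers, the build was mm10 and the annotation GENCODE M21, and models absent from it were added. Only models with at least 1 read are listed. Aligner and tool versions, and any filters, are not given in the sources here. Truncated molecules become incomplete splice matches in such files, and reads of near-identical copies can go to either copy.

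Reads were summed per gene over all models and scaled to the reads of annotated genes without ERCC spike-ins (Python 3.11.15, pandas 2.3.3, SciPy 1.17.1). Log2 ratios between libraries have exact conditional binomial 95% intervals, shares have Wilson 95% intervals, and paralog ratios use a prior count of 0.5. TMM factors came from edgeR 4.0.16, with no test, and pseudogene copies from BLAST 2.17.0 (at least 90% identity over at least 50% of the copy). Isoforms were matched by transcript or by exact intron chain, and single-exon models were pooled per gene. The 2-fold calls and the intervals of log2 ratios were tried on simulated counts with the same formulas, and the other steps were not.

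Members and lists were chosen with earlier results of these data known. Named were members with at least 500 summed reads, those of a listed pair or over 2-fold apart, those with a dominant isoform under 60%, unannotated or differing between libraries, and exons included in 10 to 90%. Other genes named were chosen after their values were seen. Splice-site choices, first and last exons, copies, length ranges, single-exon models, annotated shares per gene, the eIF4F sum without Eif4g2 and intervals under other scalings were added after seeing the data. No p-value was computed, since 1 group of 2 libraries allows no test between conditions.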

Additional observations from a re-analysis of the deposited data

Results flagged for a closer look

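The processed pseudogene Eif4a-ps4, which the name rule leaves out, carried a signal outside the genes described: 38 reads in replicate 1 and 54 in replicate 2. No control samples exist against which to set it.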

How the results depend on the processing

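Of the alternatives to the leading results, 32 kept their value or direction, 5 moved and 2 reversed. With annotated transcript models alone, in numerator and denominator, the members' summed level was 7621 CPM, and 1 of 66 exons lay between 10 and 90% inclusion in place of 4 of 100. By reads per kb, 5 of the 10 leading members by CPM remained among the leading 10. Without Eif1 the share of annotated transcripts was 80.2%. Median-ratio scaling put 1 member, Eif2b2, over 2-fold apart (3.68% of all genes), and 0 were so under TMM scaling, other count minimums, annotated models alone, no genomic reads or thinning, where the share of all genes ran from 3.64% to 8.40%. The median log2 ratio turned to -0.051 with median-ratio and -0.035 with TMM scaling. Among the pairs, Eif4a3 over Eif4a1 reversed to -0.60 with the reads of processed copies added, an alternative chosen after seeing the data, and Eif4e3 over Eif4e to 0.13 with annotated models alone. Eif2s3y over Eif2s3x, near 0 at the outset, reversed to 0.18 with annotated models alone, 0.11 without genomic reads, 0.98 per kb and 0.24 without replicate 1, against -0.27 without replicate 2.

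Leaving out each library gave a summed level from 5885 to 6153 CPM, 9 to 10 of the leading 10 members, an annotated share from 83.1% to 83.6%, 4 exons between 10 and 90% either way, and a median dominant share from 85.4% to 87.8%. The count over 2-fold apart and the median ratio need both libraries. No paired analysis was possible because both libraries belong to 1 group. With 2 libraries the SD is itself imprecise, and members with few reads, such as Eif2ak3, Eif2ak4 and Eif3j2, have wide counting intervals.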
